A study of Mus musculus with 15 samples.

Results

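The genes described here encode 4 simple epithelial keratins (Krt7, Krt8, Krt18 and Krt19), 2 claudins (Cldn4 and Cldn6), the adhesion molecules Cdh1 and Epcam, the 14-3-3 protein Sfn, and vimentin (Vim), the intermediate filament protein typical of mesenchymal cells. They were taken by symbol from the deposited gene tables, and all 10 were found among 24819 genes. The list was drawn up with the results of these same libraries in view, that is, the genes were chosen by their measured FPKM in the knockdowns and siNT, so the values of the 10 genes are given as a description, without p-values, and the counts of genes called are read against all genes.

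RNA was sequenced from E14 cells, a line of mouse embryonic stem cells kept on gelatin in serum medium with leukemia inhibitory factor, a cytokine that holds such cells undifferentiated. All cells were transfected with DharmaFECT and 1 kind of siRNA, aimed at Rpl11 (siRpl11), Rpl14 (siRpl14), Rpl18 (siRpl18) or Rpl23 (siRpl23), genes for proteins of the large ribosomal subunit, or non-targeting (siNT). The titles give 48 h and the treatment protocol gives 3 days of knockdown. Each of the 5 groups had 3 libraries, all of 1 cell line, and the labels do not say whether they came from separate cultures, so the spread between libraries may be technical.

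Simple epithelia build their cytoskeleton from keratins that assemble as obligate pairs of a type II protein (Krt7 or Krt8) and a type I protein (Krt18 or Krt19), while vimentin forms filaments on its own. Claudins seal tight junctions, E-cadherin (Cdh1) holds cells together at adherens junctions, and Epcam is a surface protein of epithelial and embryonic stem cells. In the mouse embryo Krt8 and Krt18 are among the first keratins made and mark the trophectoderm, the outer epithelium of the blastocyst. Embryonic stem cells in culture are themselves held together by Cdh1.

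Values are FPKM as deposited (fragments scaled to transcript length and library size), a scale on which genes can be compared. Replicates 1 and 2 of every group shared a table; the third libraries came in a second table normalized on its own, so levels are compared within a table only. The number of fragments behind a value is unknown; relative depth, with siNT replicate 1 or the third siNT library set to 1, ranged from 0.697 to 1.395 within the first table and reached 1.31 within the second. The targeted gene kept 24.0% of its siNT mean in siRpl11, 51.6% in siRpl14, 32.6% in siRpl18 and 36.3% in siRpl23 by replicates 1 and 2, and 19.9% to 38.5% of the siNT value by the third libraries. The sum of 10 stem cell markers (Pou5f1, Sox2, Nanog and others) was high in every group. It was 6567 to 7185 FPKM in siRpl11, 5363 to 6457 in siRpl14 and 5489 to 6317 in siRpl18. In siRpl23 it was 5404 to 6469 and in siNT 7281 to 8325 (ranges over both tables). Dppa5a was its largest part in every library. By replicates 1 and 2, Nanog had 431 and 446 FPKM in siNT, 189 and 195 in siRpl11 and 238 to 261 in the other knockdowns. Zfp42, Esrrb, Klf4, Tfcp2l1, Tdgf1 and Dppa5a were also lower in every knockdown by these replicates. The third libraries differed for Klf4 in siRpl18 (83.9 FPKM against 64.2 in siNT) and Dppa5a in siRpl11 (3554 against 3453). Elsewhere they gave the same direction for these genes. Pou5f1 and Utf1 were higher in siRpl11 than in siNT. Sox2 was higher than in siNT in every knockdown. It had 220 and 215 FPKM in siNT, 276 and 266 in siRpl11, and 242 and 233 in siRpl14. In siRpl18 it had 277 and 278, and in siRpl23 251 and 250.

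Differences are log2 fold changes on the log2(FPKM + 1) scale ± SE from limma, fitted to replicates 1 and 2 of all groups (n = 2 per group) over 12249 genes that reached 1 FPKM in 2 or more libraries of the first table. Adding 1 understates changes of genes with low FPKM. A gene was called when its Benjamini-Hochberg adjusted p over all tested genes was under 0.05. All 10 genes passed the filter, 9 of them in every group; Krt7 passed only through siRpl14, siRpl18 and siRpl23, so it had to be higher there.

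Against siNT, 9 of the 10 genes were called higher in siRpl23 and 1 lower, where 34.9% and 30.8% of all genes were. In siRpl14, 8 were called higher and 1 lower (33.3% and 29.5% of all genes), and in siRpl18, 7 higher and 1 lower (32.8% and 34.7%). In siRpl11, limma called 0 higher (27.3% of all genes; also 0 of the 10 at an unadjusted p under 0.05) and 9 lower (43.6%). In these comparisons, which share the siNT libraries, the difference had the same sign in the second table in every case but Cdh1 in siRpl18. The median of all genes was -0.11 in siRpl11, and between -0.02 and 0.02 in the other knockdowns. Median-ratio scaling and quantile normalization brought the siRpl11 median to 0.01, and the share of siRpl11 calls that were higher was 38.5% as deposited and 50.9% under either scaling.

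**Figure D1:**
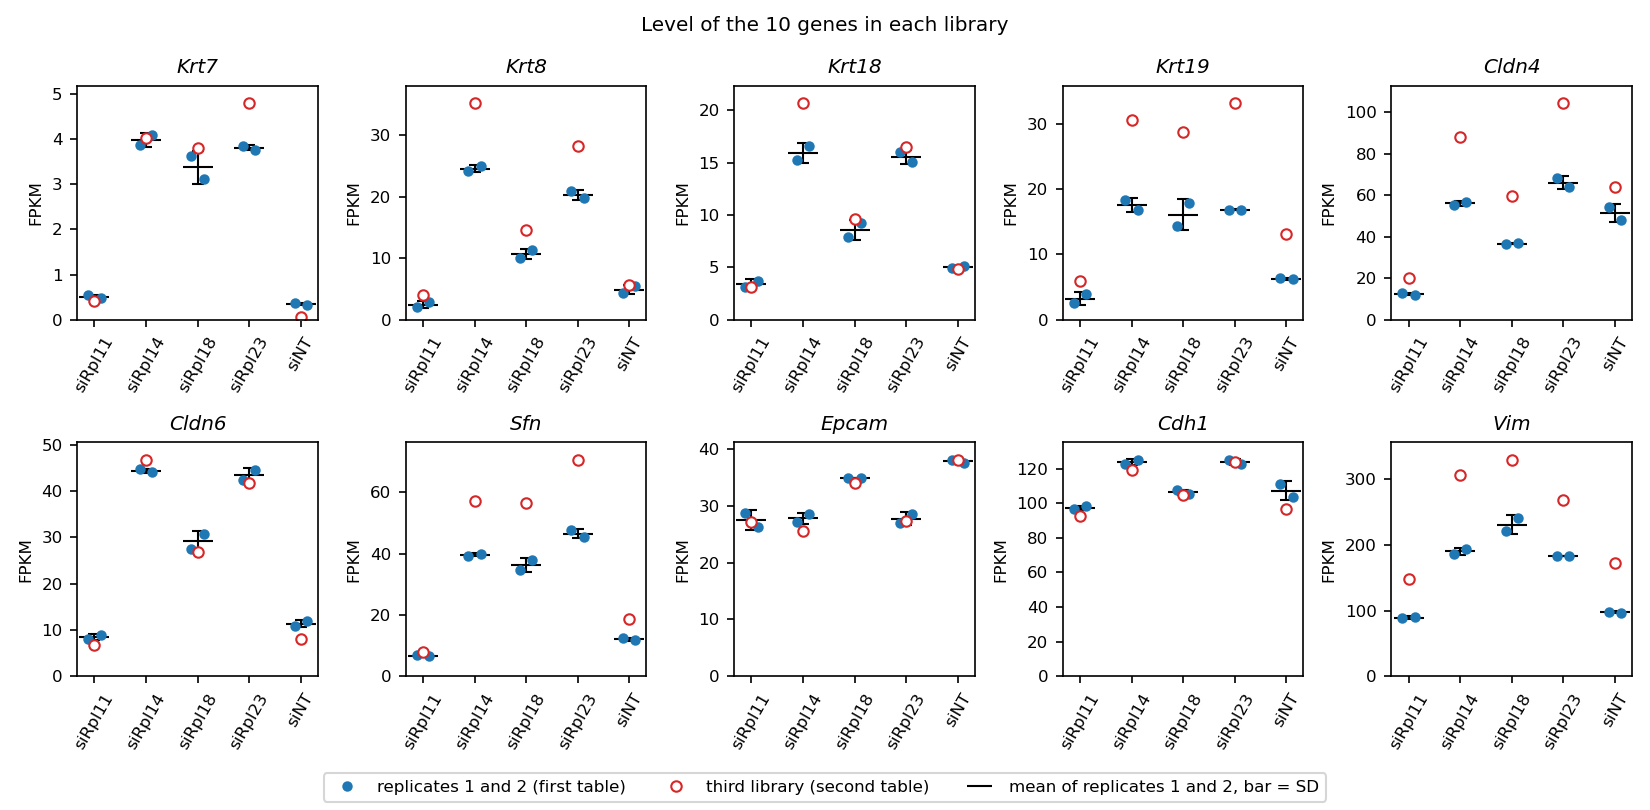
FPKM of each gene (vertical axes, from 0) in the 4 knockdowns and siNT (horizontal axes). Filled points are replicates 1 and 2, dashes their mean with SD, and open points the third libraries of the second table. Krt8 reached 24.2 to 25.0 FPKM in siRpl14 and was at 4.40 to 5.46 in siNT in the first table, whereas Epcam was highest in siNT.

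Krt8, the main type II keratin of simple epithelia, was high in siRpl14 and siRpl23, intermediate in siRpl18 and lowest in siRpl11. It had 2.14 and 2.85 FPKM in siRpl11, 24.2 and 25.0 in siRpl14, 10.1 and 11.3 in siRpl18, 20.9 and 19.8 in siRpl23, and 4.40 and 5.46 in siNT. No neighbouring groups in this order overlapped. The third libraries stood at 4.02 FPKM in siRpl11, 35.2 in siRpl14, 14.6 in siRpl18, 28.3 in siRpl23 and 5.603 in siNT, the same order. Against siNT, Krt8 differed by 2.11 ± 0.11 in siRpl14, 1.85 ± 0.11 in siRpl23, 0.98 ± 0.11 in siRpl18 and -0.77 ± 0.11 in siRpl11. An annotated long noncoding RNA, Gm36026, overlaps Krt8 on the other strand, a processed pseudogene, Krt8-ps, is annotated elsewhere, and the sources used here do not say whether counting used strand, so part of the Krt8 value could come from such reads.

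Krt18, the type I partner of Krt8, followed the same order of group means. It had 3.17 and 3.76 FPKM in siRpl11, 15.2 and 16.6 in siRpl14, 7.90 and 9.27 in siRpl18, 16.0 and 15.1 in siRpl23, and 4.99 and 5.15 in siNT. The siRpl14 and siRpl23 libraries overlapped, and the other neighbours in the order did not. The differences from siNT were 1.48 ± 0.09 in siRpl14, 1.45 ± 0.09 in siRpl23, 0.66 ± 0.09 in siRpl18 and -0.45 ± 0.09 in siRpl11, and the third libraries gave 1.89, 1.58, 0.86 and -0.48 in that order of knockdowns. Quantile normalization ended the siRpl11 call (-0.19).

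Krt8 and Krt18 are neighbours on chromosome 15, with 0 protein-coding genes between them in the RefSeq annotation of build GRCm38.p6. Their upstream sequences are shown because the pair moved together. Each line gives the 250 bases before the annotated start, 5′ to 3′ on the gene's strand, from RefSeq in build GRCm38.p6, which differs from the mm9 build the authors used. Capitals mark CAGGTG or its reverse complement CACCTG, the E-box form to which repressors of epithelial genes such as Snai1 and Zeb1 bind in the Cdh1 promoter.
Krt8 (chr15:102004343-102004592, minus strand): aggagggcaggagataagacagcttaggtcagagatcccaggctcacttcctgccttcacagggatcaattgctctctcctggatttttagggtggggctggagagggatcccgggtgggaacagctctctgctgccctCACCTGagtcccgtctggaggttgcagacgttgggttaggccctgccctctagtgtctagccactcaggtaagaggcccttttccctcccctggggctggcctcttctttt
Krt18 (chr15:102027966-102028215, plus strand): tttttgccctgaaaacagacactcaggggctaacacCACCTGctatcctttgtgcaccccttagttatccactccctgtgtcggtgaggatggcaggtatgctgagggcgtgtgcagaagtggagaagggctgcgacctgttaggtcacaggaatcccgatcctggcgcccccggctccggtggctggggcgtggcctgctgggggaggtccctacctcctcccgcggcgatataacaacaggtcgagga
Krt8 held 1 such E-box, which began 111 bases before the start, and Krt18 held 1, which began 214 bases before it.

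Krt19, a type I keratin without the usual tail domain, had 2.57 and 3.93 FPKM in siRpl11, 18.3 and 16.8 in siRpl14, 14.4 and 17.8 in siRpl18, 16.8 and 16.9 in siRpl23, and 6.40 and 6.19 in siNT. Its levels in siRpl14, siRpl18 and siRpl23 overlapped, unlike those of Krt8. The differences were 1.35 ± 0.14 in siRpl14, 1.22 ± 0.14 in siRpl18, 1.29 ± 0.14 in siRpl23 and -0.80 ± 0.14 in siRpl11. Among the third libraries Krt19 stood at 5.91 FPKM in siRpl11, 30.5 in siRpl14, 28.8 in siRpl18, 33.1 in siRpl23 and 13.1 in siNT, again with siRpl11 lowest.

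Krt7, the other type II keratin of simple epithelia, was the lowest of the 10 genes. It had 0.543 and 0.483 FPKM in siRpl11, 3.87 and 4.09 in siRpl14, 3.62 and 3.12 in siRpl18, 3.84 and 3.76 in siRpl23, and 0.369 and 0.333 in siNT. The 3 higher groups lay within 1 FPKM of each other and above siRpl11 and siNT. The differences were 1.88 ± 0.08 in siRpl14, 1.69 ± 0.08 in siRpl18 and 1.83 ± 0.08 in siRpl23. In siRpl11 the difference of 0.16 ± 0.08 was not called, but it was with a pseudocount of 0.1 (0.44), quantile normalization (0.23) and median-ratio scaling (0.21). A noncoding gene, Gm671, is annotated on the strand opposite Krt7, and its reads cannot be told apart here.

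Vimentin was already abundant in siNT and highest in siRpl18. Vim had 87.9 and 90.5 FPKM in siRpl11, 187 and 193 in siRpl14, 221 and 241 in siRpl18, 183 and 183 in siRpl23, and 98.2 and 96.2 in siNT. It was the only one of the 10 genes with its highest mean in siRpl18, and siRpl18 did not overlap siRpl14 or siRpl23. The differences from siNT were 0.96 ± 0.05 in siRpl14, 1.24 ± 0.05 in siRpl18 and 0.91 ± 0.05 in siRpl23, and 0.83, 0.94 and 0.64 in the second table. The siRpl11 difference of -0.12 ± 0.05 was close to the median of all genes; with median-ratio scaling it turned to 0.01, and it was no longer called with no filter or without either siNT library (-0.11 without replicate 1 and -0.14 without replicate 2), either siRpl11 library (-0.10 without replicate 1 and -0.14 without replicate 2) or either siRpl23 library (-0.12 each). Vim stood at 148 FPKM in the third siRpl11 library, 306 in siRpl14, 330.1 in siRpl18, 269 in siRpl23 and 172 in siNT. No searched motif lay in the 250 bases before the annotated Vim start, which are printed for comparison with the keratins.
Vim (chr2:13574061-13574310, plus strand): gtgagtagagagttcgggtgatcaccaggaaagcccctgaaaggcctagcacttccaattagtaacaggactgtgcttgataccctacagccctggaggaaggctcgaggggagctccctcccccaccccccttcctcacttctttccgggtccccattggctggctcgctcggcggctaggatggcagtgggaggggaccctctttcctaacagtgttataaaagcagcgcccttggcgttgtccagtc

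**Figure D2:**
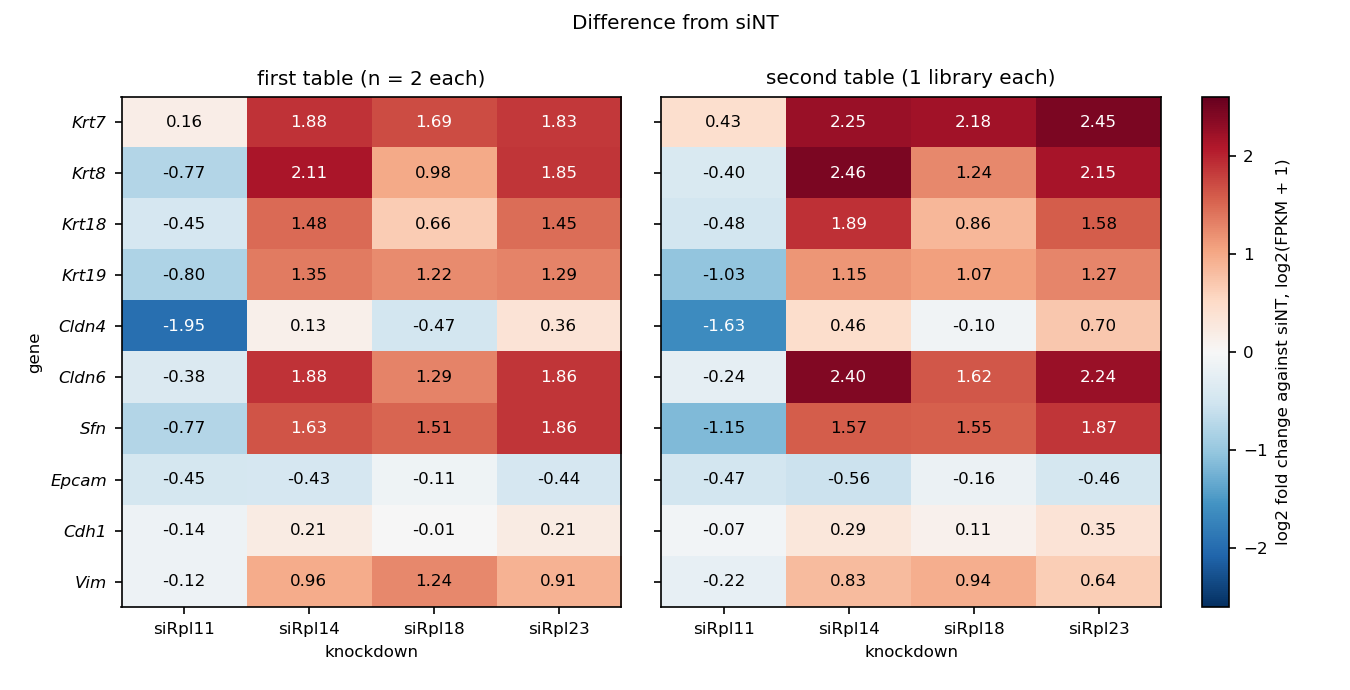
Log2 fold changes against siNT (colour and printed value) of the 10 genes (rows) in the 4 knockdowns (columns), on the left from replicates 1 and 2 and on the right from the third libraries (1 per group). Krt7, Krt8, Krt18, Krt19, Cldn6, Sfn and Vim were higher in siRpl14, siRpl18 and siRpl23; Vim in siRpl11 (-0.12) turned to 0.01 with median-ratio scaling.

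Ratios of FPKM within a library set the filament genes against each other. Krt8 over Krt18 was 0.675 and 0.759 in siRpl11, 1.59 and 1.51 in siRpl14, 1.28 and 1.22 in siRpl18, 1.31 and 1.31 in siRpl23, and 0.883 and 1.06 in siNT. In the second table it was 1.26 in siRpl11, above the 1.16 of siNT, and 1.53 to 1.72 in the other knockdowns, so the lower ratio in siRpl11 was seen in the first table alone. Type II over type I, from the sums of the 4 genes, was 0.433 to 0.467 in siRpl11, 0.836 to 0.870 in siRpl14, 0.532 to 0.616 in siRpl18, 0.738 to 0.756 in siRpl23 and 0.419 to 0.511 in siNT. The ratio was higher in siRpl14, siRpl18 and siRpl23 than in siNT, without overlap, while siRpl11 overlapped siNT. In the second table it was 0.489 in siRpl11, 0.768 in siRpl14, 0.480 in siRpl18, 0.669 in siRpl23 and 0.315 in siNT, so that all 4 knockdowns lay above siNT there. The type I sum was the larger in every library.

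Vim exceeded the 4 keratins together in all 15 libraries. Its level was 8.21 and 10.4 times their sum in siRpl11, 3.03 and 3.09 times in siRpl14, 6.14 and 5.82 times in siRpl18, 3.17 and 3.30 times in siRpl23, and 6.08 and 5.61 times in siNT. The ratio was thus lower in siRpl14 and siRpl23 than in siNT, while the siRpl18 libraries, where Vim and keratins were both higher than in siNT, had ratios that overlapped those of siNT. In the third libraries it was 10.9 in siRpl11, 3.39 in siRpl14, 5.81 in siRpl18, 3.25 in siRpl23 and 7.28 in siNT.

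**Figure D3:**
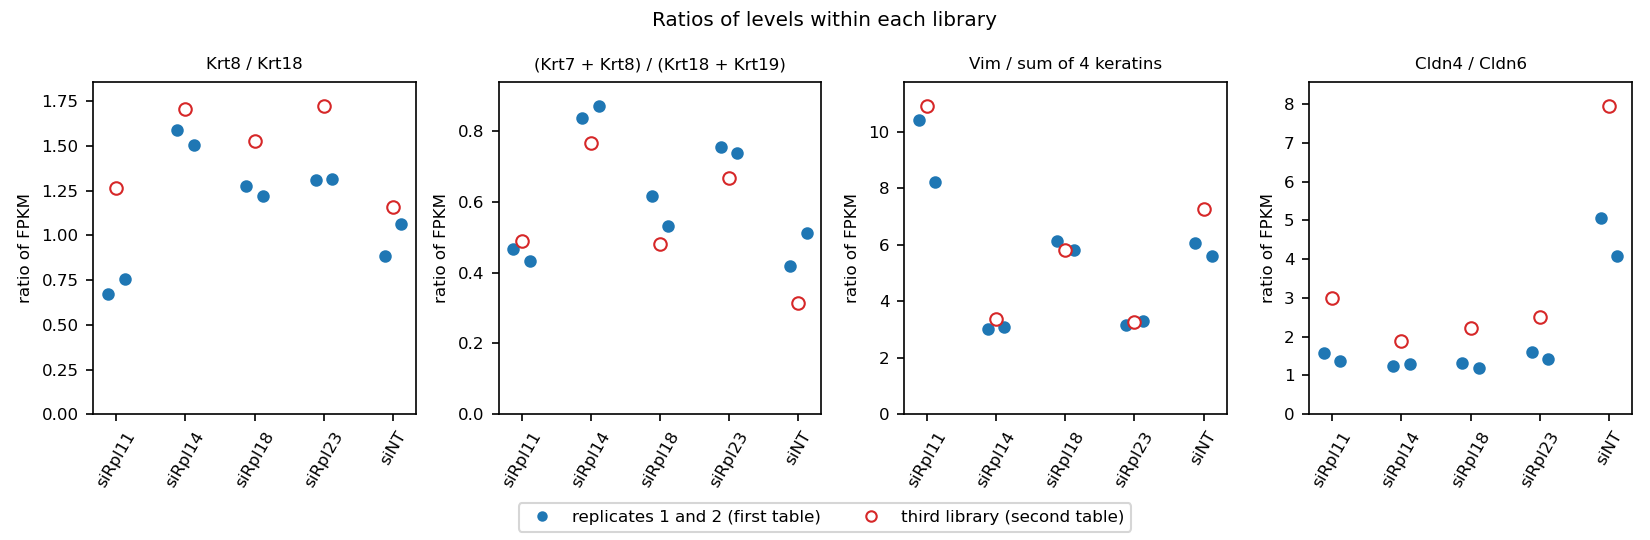
Ratios of FPKM (vertical axes, from 0) within each library of the 4 knockdowns and siNT; filled points are replicates 1 and 2 and open points the third libraries. Vim over the 4 keratins was lowest in siRpl14 and siRpl23 (3.03 to 3.39 over both tables), and Cldn4 over Cldn6 was highest in siNT (4.08 to 7.95).

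The claudins, both tight junction proteins, differed in pattern. Cldn6 is typical of early embryonic epithelia and pluripotent cells, whereas Cldn4 is widespread in epithelia. Cldn6 had 8.07 and 8.90 FPKM in siRpl11, 44.7 and 44.1 in siRpl14, 27.6 and 30.8 in siRpl18, 42.4 and 44.6 in siRpl23, and 10.8 and 11.8 in siNT. It followed the order of Krt8, with siRpl14 and siRpl23 overlapping. The differences from siNT were 1.88 ± 0.07 in siRpl14, 1.29 ± 0.07 in siRpl18, 1.86 ± 0.07 in siRpl23 and -0.38 ± 0.07 in siRpl11, and the third libraries gave 2.40, 1.62, 2.24 and -0.24.

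Cldn4 had 12.9 and 12.2 FPKM in siRpl11, 55.3 and 57.0 in siRpl14, 36.5 and 37.0 in siRpl18, 68.4 and 64.1 in siRpl23, and 54.5 and 48.4 in siNT. The siRpl11 libraries were far below all others, a difference from siNT of -1.95 ± 0.06, with 20.0 FPKM in the third siRpl11 library and 63.8 in the third siNT library. It was 0.36 ± 0.06 in siRpl23 and -0.47 ± 0.06 in siRpl18, which was -0.10 in the second table. In siRpl14 the difference of 0.13 ± 0.06 was not called; it was called without siNT replicate 1 (0.21) and with all 15 libraries (0.24). Cldn4 over Cldn6 was 1.59 and 1.37 in siRpl11, 1.24 and 1.29 in siRpl14, and 1.32 and 1.202 in siRpl18. It was 1.61 and 1.44 in siRpl23, and 5.06 and 4.08 in siNT, so every knockdown shifted the pair towards Cldn6. In siRpl11 both genes were lower, Cldn4 by more than Cldn6 (-0.38). In siRpl14 and siRpl23 there was more Cldn6. In siRpl18 there was more Cldn6 and, mainly in the first table, less Cldn4.

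Upstream of Cldn4, 1 E-box began 14 bases before the start. The window also held 2 copies of TGANTCA, the site of the AP-1 factors, and 1 GC box (GGGCGG or CCGCCC), and is shown because Cldn4 set siRpl11 apart. Capitals mark all 3 kinds.
Cldn4 (chr5:134946935-134947184, minus strand): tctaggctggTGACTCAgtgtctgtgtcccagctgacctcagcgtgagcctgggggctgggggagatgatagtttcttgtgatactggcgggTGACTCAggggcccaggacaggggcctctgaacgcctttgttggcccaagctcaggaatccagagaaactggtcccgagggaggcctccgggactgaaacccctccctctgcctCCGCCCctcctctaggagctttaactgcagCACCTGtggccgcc
Cldn6 held 1 E-box and 2 GC boxes in its window, and no TGANTCA.

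Cdh1, the main adhesion protein of stem cell colonies, differed from siNT by no more than 0.21 in any knockdown by replicates 1 and 2. The third libraries gave -0.07 in siRpl11, 0.29 in siRpl14, 0.11 in siRpl18 and 0.35 in siRpl23. It had 96.5 and 98.1 FPKM in siRpl11, 123 and 125 in siRpl14, 107 and 105 in siRpl18, 125 and 122 in siRpl23, and 111 and 104 in siNT. The siRpl18 libraries lay within the range of siNT. The differences were 0.21 ± 0.04 in siRpl14 and in siRpl23, -0.01 ± 0.04 in siRpl18 and -0.14 ± 0.04 in siRpl11. The siRpl11 difference was -0.00 with median-ratio scaling, and it was not called without siNT replicate 1 (-0.09) or siRpl11 replicate 1 (-0.13).

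Epcam was the one gene of the 10 below siNT in all 4 knockdowns, in both tables. It had 28.7 and 26.2 FPKM in siRpl11, 27.1 and 28.5 in siRpl14, 34.9 and 34.9 in siRpl18, 26.9 and 28.6 in siRpl23, and 38.1 and 37.6 in siNT. The siRpl11, siRpl14 and siRpl23 libraries overlapped, and siRpl18 lay between them and siNT. The differences were -0.45 ± 0.05 in siRpl11, -0.43 ± 0.05 in siRpl14 and -0.44 ± 0.05 in siRpl23. In siRpl18 it was -0.11 ± 0.05, not called, but called with quantile normalization (-0.16) and with all 15 libraries (-0.13). In siRpl14 and siRpl23 Epcam was lower and Cdh1 higher than in siNT, and Epcam over Cdh1 was 0.221 and 0.228 in siRpl14, 0.215 and 0.233 in siRpl23, and 0.343 and 0.363 in siNT. The Epcam window held 2 E-boxes, 187 and 19 bases before the start, and 1 GC box.

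Sfn, the 14-3-3 protein of epithelial cells and a known p53 target, had 6.87 and 6.52 FPKM in siRpl11, 39.3 and 39.99 in siRpl14, 34.8 and 38.0 in siRpl18, 47.6 and 45.5 in siRpl23, and 12.4 and 11.8 in siNT. No neighbouring groups overlapped, and siRpl23 was highest. The differences were 1.63 ± 0.06 in siRpl14, 1.51 ± 0.06 in siRpl18, 1.86 ± 0.06 in siRpl23 and -0.77 ± 0.06 in siRpl11, and -1.15 in the third siRpl11 library. Of the 6 other 14-3-3 genes, which are broadly expressed, Ywhah was called higher in all 4 knockdowns, by 0.32 ± 0.06 in siRpl11 to 0.44 ± 0.06 in siRpl14 (limma adjusted p from 9.21e-05 to 0.000608). The Ywhae and Ywhaq differences from siNT were between -0.22 and 0.09. Quantile normalization ended the Ywhae calls in siRpl14 (-0.02), siRpl18 (-0.04) and siRpl23 (-0.04), and the siRpl18 call was also lost without siRpl18 replicate 1 (-0.13). In siRpl11 Ywhae, not called, was called higher with quantile normalization and all 15 libraries (0.12 each) and with median-ratio scaling (0.23). The Ywhaq call was lost in siRpl11 (-0.14) with median-ratio scaling (-0.00) and without siNT replicate 1 (-0.14) or 2 (-0.13) or siRpl11 replicate 2 (-0.10), and in siRpl14 (-0.15) without siNT replicate 1 (-0.16) or 2 (-0.14) or siRpl14 replicate 2 (-0.13). Of the 6, 1 rose and 3 fell in siRpl11 (27.3% and 43.6% of all genes), 1 rose and 2 fell in siRpl14 (33.3% and 29.5%), 2 rose and 3 fell in siRpl18 (32.8% and 34.7%), and 3 rose and 2 fell in siRpl23 (34.9% and 30.8%).

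The 250-base windows of 8 of the 10 genes were matched in RefSeq and searched on both strands for 4 motifs. Krt19 and Cdh1 had no matched window and were not searched. CAGGTG was found in 7 of 8, all but Vim, and in 17.3% of 32536 windows of all genes. The GC box was in 4 of 8 (33.0% of all windows), TGANTCA in 1 of 8 (6.73%) and GGAATG, the core of the TEAD site, in 0 of 8 (12.6%). No motif overlapped another. Such a match is a string of letters, not a bound site, and no binding was measured.

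**Figure D4:**
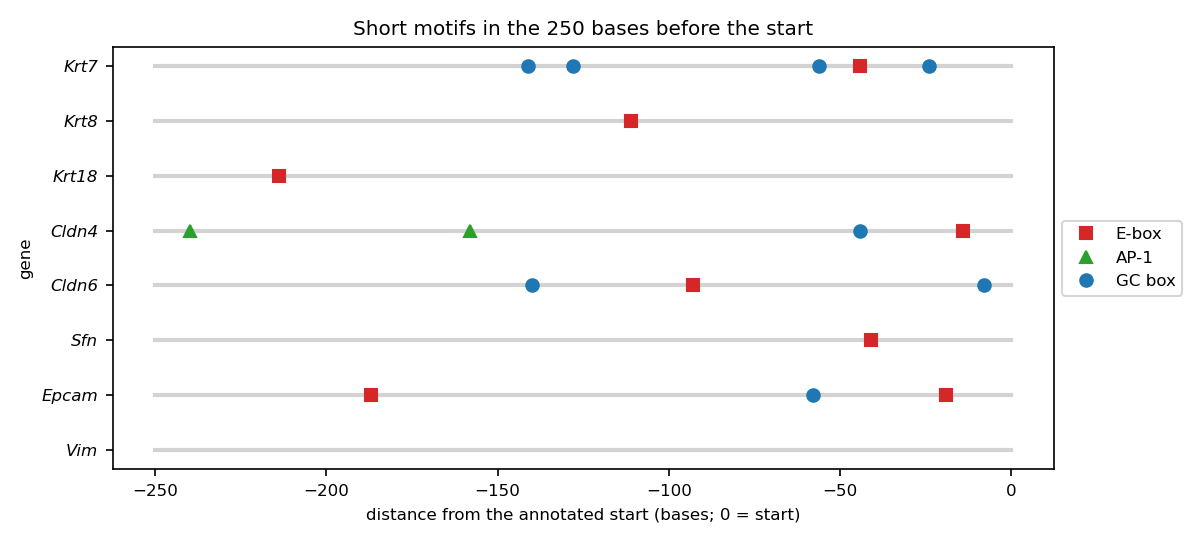
Positions of the searched motifs in the 250 bases before the annotated start of 8 genes (vertical axis); the horizontal axis is the distance of the motif's first base from the start, in bases. Red squares are E-boxes, present in 7 genes and absent from Vim; TEAD motifs were found in none.

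Set against the mean of siRpl14, siRpl18 and siRpl23, all 10 genes were called lower in siRpl11 and 0 higher by limma (0 also at an unadjusted p under 0.05), where 44.2% and 18.4% of all genes were. The median of all genes was -0.12 here, 0.05 with quantile normalization and 0.01 with median-ratio scaling. Of all calls in this comparison 29.3% were higher, against 56.8% with quantile normalization and 50.8% with median-ratio scaling. The differences were -2.44 ± 0.05 for Sfn, -2.42 ± 0.09 for Krt8, -2.08 ± 0.11 for Krt19, -2.05 ± 0.06 for Cldn6 and -1.96 ± 0.05 for Cldn4. Krt18 and Krt7 each differed by -1.64, Vim by -1.16 ± 0.04 and Cdh1 by -0.27 ± 0.03. Krt7 passed the filter only through siRpl14, siRpl18 and siRpl23, so it had to be lower in siRpl11 here. The 10 genes were chosen with these values known, so their count is a description. Epcam, at -0.12 ± 0.04, turned to 0.02 with median-ratio scaling and was not called with quantile normalization (-0.02), without siRpl11 replicate 2 (-0.06), siRpl14 replicate 2 (-0.11), siRpl18 replicate 1 (-0.12) or siRpl23 replicate 2 (-0.11); without siRpl11 replicate 1 it was -0.19. In the second table all 10 had the same sign.

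Between siRpl18 and siRpl14, 2 genes were called higher in siRpl18 and 5 lower, where 5.96% and 8.30% of all genes were. Krt8 was at -1.13 ± 0.11, Krt18 at -0.82 ± 0.09, Cldn4 at -0.60 ± 0.06, Cldn6 at -0.59 ± 0.07 and Cdh1 at -0.22 ± 0.04, whereas Epcam was at 0.32 ± 0.05 and Vim at 0.28 ± 0.05. Krt7, Krt19 and Sfn were not called. The Cdh1 call was lost without siRpl14 replicate 2 (-0.20) or siRpl18 replicate 2 (-0.20). Of all calls, 41.8% were higher as deposited and 59.2% with median-ratio scaling. Without 1 library, 283 to 723 genes were called higher in place of 730 and 311 to 995 lower in place of 1017, the fewest higher without siRpl18 replicate 2 and the fewest lower without siRpl14 replicate 2.

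Between siRpl18 and siRpl23 the picture was the same, with 2 genes called higher in siRpl18 (1.07% of all genes) and 6 lower (2.44%). The differences were -0.87 ± 0.11 for Krt8, -0.83 ± 0.06 for Cldn4, -0.79 ± 0.09 for Krt18, -0.56 ± 0.07 for Cldn6, -0.35 ± 0.06 for Sfn and -0.22 ± 0.04 for Cdh1, and 0.33 ± 0.05 for Vim and 0.32 ± 0.05 for Epcam. The calls of Krt8, Krt18, Cldn4 and Cldn6 held without any 1 library. The Epcam call (0.28 to 0.36) and the Cdh1 call (-0.23 to -0.20) were lost without any 1 of the 4 libraries compared, the Sfn call without siRpl18 replicate 1 (-0.29), siRpl23 replicate 1 (-0.32) or siRpl23 replicate 2 (-0.38), and the Vim call without siRpl23 replicate 1 (0.33) or 2 (0.34). Of all calls, 30.5% were higher as deposited, 45.6% with quantile normalization and 55.5% with median-ratio scaling. Without 1 library, 21 to 122 genes were called higher in place of 131 and 38 to 269 lower in place of 299, the fewest higher without siRpl23 replicate 2 and the fewest lower without siRpl23 replicate 1.

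Between siRpl14 and siRpl23, 0 of the 10 genes were called higher (0.0980% of all genes) and 0 lower (0.416%) by limma. At an unadjusted p under 0.05, 1 was higher and 2 lower. The differences were between -0.23 and 0.26, the lowest that of Cldn4 (-0.23 ± 0.06) and the highest that of Krt8 (0.26 ± 0.11).

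The related genes below were listed by family or role, not by how they moved, though earlier results on these libraries were known. The counts of each list are read against all genes, of which 27.3% were called higher and 43.6% lower in siRpl11, 33.3% and 29.5% in siRpl14, 32.8% and 34.7% in siRpl18, and 34.9% and 30.8% in siRpl23. Most keratin genes were silent or nearly so: of 51 symbols of the form Krt and a number, 41 stayed under 1 FPKM in every library of the first table and 7 were listed at 0 in all of them. Of the 47 keratins other than the 4 above, 6 passed the filter. In siRpl11, 2 were called higher and 2 lower, and in siRpl14, siRpl18 and siRpl23, 3 higher and 2 lower in each. All those called higher were among Krt5, Krt13 and Krt15, which passed the filter only through knockdown libraries and so had to be higher in some of them. The Krt15 call in siRpl11 (0.36) was lost with all 15 libraries (0.30). The 2 called lower, of 6, were near the share of all genes in siRpl14, siRpl18 and siRpl23.

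Krt5, a type II keratin of basal epidermal cells, was at 0.551 ± 0.036 FPKM in siRpl11, 1.46 ± 0.097 in siRpl14, 3.22 ± 0.170 in siRpl18, 2.65 ± 0.157 in siRpl23 and 0.0518 ± 0.0454 in siNT (SD, n = 2). Its difference from siNT in siRpl18 was 2.00 ± 0.09, and that of Krt15, a type I keratin of the same layer, 1.39 ± 0.09; both are given without p because the filter fixed their direction. Both had higher means in siRpl18 than in siRpl14 (Krt15 at 1.72 ± 0.140 and 1.11 ± 0.0883 FPKM), whereas Krt8 was lower in siRpl18. Krt17 fell in all 4 knockdowns, most in siRpl11 (-1.15 ± 0.11, limma adjusted p = 9.92e-06). Its call was lost in siRpl14 (-0.37) without siNT replicate 2 (-0.35) or siRpl14 replicate 1 (-0.32), and in siRpl23 (-0.43) without siRpl23 replicate 1 (-0.25).

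Among claudins other than Cldn4 and Cldn6, 5 of 22 passed the filter. Of these, Cldn5 reached 1 FPKM in siNT alone, and so had to be lower in the knockdowns. In siRpl11, 4 were called lower, Cldn5 among them, and 0 higher by limma (0 also at an unadjusted p under 0.05). With Cldn5 counted again, 3 were called lower and 1 higher in siRpl14, 4 lower and 1 higher in siRpl18, and 3 lower and 1 higher in siRpl23. Cldn3 was at 0.694 ± 0.201 FPKM in siRpl11, 0.874 ± 0.567 in siRpl14, 1.29 ± 0.0975 in siRpl18, 1.25 ± 0.158 in siRpl23 and 3.58 ± 0.440 in siNT (SD, n = 2), and fell in each, by 1.44 ± 0.18 on the log2 scale in siRpl11 (limma adjusted p = 4.9e-05). For Cldn5 and Cldn7 the second table gave the opposite sign in siRpl14 and siRpl23 (Cldn7 0.37 and 0.47, Cldn5 0.74 and 0.35), and for Cldn7 in siRpl18 as well (0.42), so these lower values were not seen in the third libraries. Cldn9, called lower in siRpl23 (-0.46), stood at 0.21 there, and Cldn12, called higher in siRpl18 (0.24), at -0.02; both are named after their values were seen. With all 15 libraries the Cldn5 calls in siRpl14 (-0.34), siRpl18 (-0.47) and siRpl23 (-0.33) and the Cldn7 calls in siRpl14 (-0.09) and siRpl18 (-0.08) were lost. The Cldn7 call was also lost in siRpl14 (-0.33) without siNT replicate 2 (-0.30) or siRpl14 replicate 1 (-0.25), and in siRpl18 (-0.33) without siNT replicate 2 (-0.30); in siRpl23 (-0.23, not called) it was made without siRpl23 replicate 2 (-0.33), with quantile normalization (-0.28), with median-ratio scaling (-0.25) and with the replicate block (-0.23).

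Other intermediate filament and lamin genes went both ways (11 tested). In siRpl11, 2 rose and 6 fell, in siRpl14, 5 rose and 4 fell, in siRpl18, 3 rose and 5 fell, and in siRpl23, 4 rose and 4 fell. In siRpl23 that was near the shares of all genes (34.9% higher and 30.8% lower), and 1 of the 11, Sync, passed the filter only through knockdown libraries. The median was -0.29 in siRpl11 and 0.01, 0.07 and 0.03 in the others. Synm, a filament protein that assembles with vimentin, rose in all 4, to 5.03 ± 0.269 FPKM in siRpl11, 6.40 ± 0.0117 in siRpl14, 7.81 ± 0.0142 in siRpl18 and 7.57 ± 0.300 in siRpl23, against 1.47 ± 0.0488 in siNT (SD, n = 2; 1.83 ± 0.06 in siRpl18, limma adjusted p = 9.45e-09). Nes, a filament protein of neural progenitors, rose in siRpl14 by 1.67 ± 0.07, in siRpl18 by 0.96 ± 0.07 and in siRpl23 by 1.22 ± 0.07, and was at 0.13 ± 0.07 in siRpl11, not called. With quantile normalization (0.39) and median-ratio scaling (0.23) Nes was called higher in siRpl11, while the third libraries gave -0.40. Nefh, a neurofilament subunit, fell in all 4, by 0.68 to 0.86.

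Of 15 tight junction genes, 3 rose and 9 fell in siRpl11, 6 rose and 4 fell in siRpl14, 6 rose and 5 fell in siRpl18, and 7 rose and 4 fell in siRpl23. In siRpl14 and siRpl18 these counts were near the shares of all genes (33.3% and 29.5%, and 32.8% and 34.7%), and 1 of the 15, Marveld3, passed the filter only through knockdown libraries. The median was -0.25 in siRpl11 and 0.11, 0.06 and 0.19 in the others. Amotl2, an angiomotin of junctions and also a YAP target gene, rose in all 4, by 1.24 ± 0.05 in siRpl11 to 1.88 ± 0.05 in siRpl23 (limma adjusted p = 1.02e-09 in siRpl23). Cgn, which encodes the junction scaffold cingulin, fell in all 4, by 0.71 to 0.90. Tjp3, a scaffold that binds claudins, was called lower in all 4 (-0.89 to -0.33), but the third libraries gave higher values in siRpl14 (0.48), siRpl18 (0.49) and siRpl23 (0.82), and with all 15 libraries the siRpl23 difference turned to 0.03 and the siRpl14 and siRpl18 calls were lost.

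Of 17 adherens junction and desmosome genes tested, 3 rose and 13 fell in siRpl11 (median -0.46), where 27.3% of all genes rose, 43.6% fell and the median was -0.11. In siRpl14, 7 rose and 4 fell, in siRpl18, 8 rose and 4 fell, and in siRpl23, 8 rose and 5 fell, with medians of 0.01, 0.13 and 0.19; of all genes 29.5% fell in siRpl14, 34.7% in siRpl18 and 30.8% in siRpl23, and 32.8% to 34.9% rose. Of the 17, Nectin4 and Evpl passed the filter only through knockdown libraries, and so had to be higher in some of them. Cdh3, or P-cadherin, had the pattern of Cldn6: 10.03 ± 0.0214 FPKM in siRpl11, 40.6 ± 0.518 in siRpl14, 32.6 ± 0.545 in siRpl18, 41.3 ± 2.73 in siRpl23 and 13.3 ± 0.103 in siNT (SD, n = 2). It rose by 1.54 ± 0.05 in siRpl14 and fell by 0.38 ± 0.05 in siRpl11 (limma adjusted p = 7.39e-09 and 7.84e-05). Nectin4, a nectin of epithelial junctions, reached 2.30 ± 0.0946 FPKM in siRpl11, 6.79 ± 0.0137 in siRpl14, 10.3 ± 0.809 in siRpl18 and 9.75 ± 0.451 in siRpl23, against 0.925 ± 0.0754 in siNT. Perp, a desmosome protein induced by p53, rose in all 4 and had the highest mean difference of the list (2.05 ± 0.06 in siRpl11 and 4.02 ± 0.06 to 4.56 ± 0.06 in the others).

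Epithelial surface and regulator genes (17 tested) had 2 that rose and 13 that fell in siRpl11 (median -0.51), where 27.3% and 43.6% of all genes did. In siRpl14 and siRpl23, 6 rose and 6 fell, and in siRpl18, 5 rose and 6 fell, near the shares of all genes, with medians of -0.04, -0.06 and -0.18. Of the 17, Rab25 reached 1 FPKM in siNT alone. The second table gave the same sign for 13 of the 15 calls in siRpl11 and 10 of the 12 in siRpl14. It did so for 10 of the 11 in siRpl18 and 9 of the 12 in siRpl23. Cd24a, called higher in all 4 knockdowns (0.22 to 0.43), was lower in all 4 by the third libraries (-0.31 to -0.03). Elf3, Klf5 and Lgals3, the 3 with the largest mean difference, fell in all 4 knockdowns. Klf5, a transcription factor of both trophectoderm and stem cells, was at 59.5 ± 0.438 FPKM in siRpl11, 98.8 ± 2.98 in siRpl14, 108 ± 2.02 in siRpl18, 107 ± 0.418 in siRpl23 and 154 ± 7.86 in siNT (SD, n = 2), a fall of 1.35 ± 0.04 on the log2 scale in siRpl11 (limma adjusted p = 1.23e-08). Elf3, an epithelial transcription factor, fell by 1.13 ± 0.07 in siRpl11 and by 0.79 to 0.83 in the others.

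Mesenchymal genes and regulators (13 tested) had 3 that rose and 5 that fell in siRpl11, and 7 that rose and 5 that fell in each of siRpl14, siRpl18 and siRpl23. The counts in siRpl11 were near the shares of all genes (27.3% and 43.6%), as were those that fell in the others (29.5% to 34.7%). Of the 13, Cdh2, Tagln, Twist1 and Zeb2 passed the filter only through knockdown libraries, so the number that rose is not read against all genes. Snai1, a repressor of Cdh1, rose to 4.13 ± 0.137 FPKM in siRpl11, 6.66 ± 0.873 in siRpl14, 7.84 ± 0.734 in siRpl18 and 6.84 ± 0.789 in siRpl23, against 2.56 ± 0.0430 in siNT (SD, n = 2; limma adjusted p from 1.73e-06 to 0.000858). Twist1, a transcription factor of mesenchyme, differed by 0.95 to 1.13 in the 4 knockdowns, at levels under 3 FPKM in the group means, with its direction fixed by the filter. Tgfbi, an extracellular matrix protein, fell in all 4, by 0.83 to 1.01. For Snai1 in siRpl11 the third libraries gave 0.06.

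**Figure D5:**
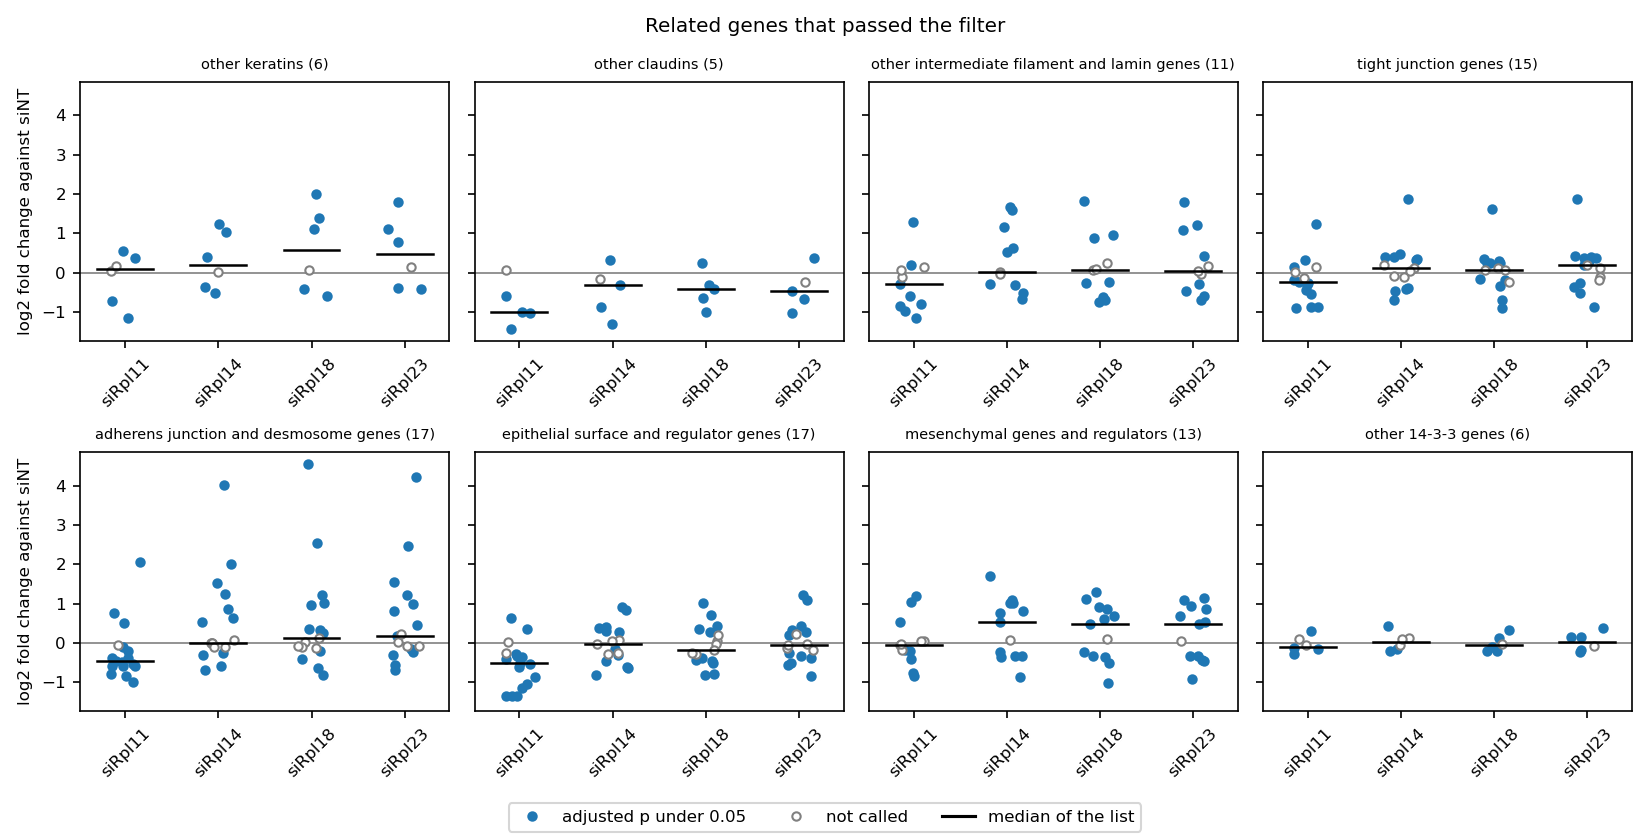
Log2 fold changes against siNT (vertical axes) of the tested genes of 8 lists in the 4 knockdowns; each point is a gene, filled when called, and lines are medians. The number of genes is in each title. In siRpl11 most adherens junction and desmosome genes (13 of 17) and epithelial genes (13 of 17) were called lower. Of all genes, 43.6% were called lower there. The median of all genes there was -0.11, which median-ratio scaling and quantile normalization brought to 0.01.

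The genes whose pattern over the 10 libraries of the first table lay closest to Krt8 were Cldn6, with a root mean square difference of 0.23 in centred log2(FPKM + 1), then Usp17le (0.27) and Usp17la (0.28), near-identical copies between which reads may be split. Closest to Krt18 were Rhob, a small GTPase, at 0.15, Tpm1, an actin-binding tropomyosin, at 0.16 and Eps8l2, an actin regulator, at 0.19. Closest to Vim were Pmaip1, a BH3-only death gene, at 0.07, Prkd2, a protein kinase, at 0.09 and Abhd4, a lipid hydrolase, at 0.10. Pmaip1 was at 19.9 ± 1.596 FPKM in siRpl11, 41.0 ± 1.46 in siRpl14, 53.8 ± 0.407 in siRpl18, 42.4 ± 1.21 in siRpl23 and 22.1 ± 0.448 in siNT (SD, n = 2), with siRpl18 highest as for Vim.

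Markers of other cell types were read beside these genes. Each range of sums runs over all 3 libraries of a group and so mixes the tables. An overlap of such ranges therefore does not show that groups overlapped within a table. Of 12 trophectoderm markers 3 are keratins described above; the other 9 summed to 27.3 to 32.0 FPKM in siRpl11, 50.0 to 54.5 in siRpl14, 44.97 to 52.8 in siRpl18, 57.8 to 61.6 in siRpl23 and 28.2 to 30.5 in siNT, most of it Tfap2c, which stem cells express too. Elf5, which defines that lineage, was listed at 0 in all siRpl14 and siRpl23 libraries. It was at 0.0302 in siNT replicate 1 and at 0 in the other siNT libraries. By replicates 1 and 2, Cdx2 had 1.54 and 2.12 FPKM in siRpl14 and 0.071 and 0.067 in siNT. Gata3 had 3.68 and 3.02 against 0.038 and 0.027, and Hand1 3.36 and 2.77 against 0.377 and 0.285. Cdx2, Gata3 and Hand1 were also higher in siRpl18 and siRpl23. In siRpl11 Gata3 had 1.202 and 0.949 FPKM and Cdx2 0.173 and 0.149, also above siNT. Hand1 and Gata2 overlapped siNT there. Tfap2a was highest in siRpl11, with 2.16 and 2.44 against 0.670 and 0.813 in siNT. Eomes was lower in siRpl11, with 1.36 and 1.61 against 2.31 and 2.11. Tead4 was lower in all 4 knockdowns, with 3.37 and 3.21 in siRpl14 and 6.09 and 5.89 in siNT. Of 10 surface ectoderm and epidermis markers (4 of them keratins counted above), which summed to 8.44 to 9.29 FPKM in siRpl11, 18.6 to 22.3 in siRpl14, 19.6 to 25.3 in siRpl18, 18.9 to 25.2 in siRpl23 and 14.5 to 18.1 in siNT, Ivl was listed at 0 in every library, and Trp63 in all of siRpl14 and siRpl23. Primitive endoderm markers (10) summed to 26.2 to 37.8 FPKM in siRpl11, 44.2 to 52.7 in siRpl14, 37.8 to 54.4 in siRpl18, 39.8 to 54.3 in siRpl23 and 27.6 to 40.1 in siNT, and mesoderm markers (8) stayed under 5 in every group. The part of such cells in the keratin and claudin values was not tested; in bulk RNA, more cells of a type and more RNA per cell cannot be told apart.

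Vim is also a marker of fibroblasts, and the sum of 10 fibroblast or feeder cell markers was 7.32 to 11.1 FPKM in siRpl11, 11.8 to 16.2 in siRpl14, 10.3 to 15.0 in siRpl18, 11.5 to 15.0 in siRpl23 and 17.3 to 21.3 in siNT. These ranges, too, run over both tables. Of these markers, Thy1 was the most abundant in every library and was highest in siNT. By replicates 1 and 2, Pdgfrb was also highest in siNT, at 1.64 and 1.41 FPKM against 0.289 to 0.632 in the knockdowns. Twist1 went the other way, with 0.632 and 0.999 in siNT and 2.34 to 3.46 in the 4 knockdowns, siRpl11 among them. Col1a1 stayed under 1 FPKM, at 0.172 and 0.156 in siRpl11, 0.746 and 0.764 in siRpl14, 0.539 and 0.746 in siRpl18, 0.665 and 0.678 in siRpl23, and 0.408 and 0.368 in siNT, and was thus higher in the 3 groups where Vim was higher. Dcn and Lum were listed at 0 in all libraries, and 8 of the 10 were under 1 FPKM in all 3 libraries of each group. The part of such cells in the Vim values was not tested.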

How the data were processed

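RNA sequencing libraries of E14 cells were made from polyadenylated RNA with a stranded kit, per the labels' protocols. The authors deposited FPKM per gene, made with STAR and Cuffnorm, per the submitters' processing notes, which name mm9; their versions and the gene annotation were not given in the sources used here. Any rescaling between libraries by Cuffnorm would hide a shift common to most genes. Of the columns, 2 match no sample of this series and were not used. Groups were taken from the titles and siRNA labels.

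FPKM are not counts, so log2(FPKM + 1) of replicates 1 and 2 went into limma (version 3.58.1, under R 4.3.3; lmFit, contrasts.fit, eBayes with trend; 1 term per group, 5 residual degrees of freedom), with Benjamini-Hochberg adjustment over 12249 genes and a threshold of 0.05; the fit was tested on simulated data. Replicates 1 and 2 of a group correlated at r of 0.991 to 0.996 across genes. The third libraries entered only the fit of all 15 libraries, with the table as a term. Relative depth came from the step of 1 read in low values. The alternatives were a pseudocount of 0.1, no filter, quantile normalization, median-ratio scaling, a replicate block, all 15 libraries, only the groups compared, and leaving out each library. Named genes of a list were the 3 called genes with the largest mean difference over the knockdowns. The genes and lists were chosen with earlier results of these data known.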

Additional observations from a re-analysis of the deposited data

How the results depend on the processing

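The fit was repeated under 7 other settings and without each of the 10 libraries. The log2 differences of the 10 genes kept their side of the threshold except where given above. Those that were called also kept their sign, but for 2 small ones that reversed with median-ratio scaling. These were Vim in siRpl11 against siNT (0.014) and Epcam in siRpl11 against the average of siRpl14, siRpl18 and siRpl23 (0.022). Differences near 0 that were not called, such as Cdh1 in siRpl18 against siNT, could change sign without being counted. Tjp3 in siRpl23 reversed with all 15 libraries (0.032). Of the 10 genes, 8 were called between siRpl18 and siRpl23; 4 were with only the groups compared, which has fewer libraries and ended the calls of Sfn, Epcam, Cdh1 and Vim, and 4 to 8 without 1 library. With no filter, 13 other keratins and 9 other claudins were called in place of 5 and 5, since more genes are tested.

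Counts over all genes moved by more than 1.5 times mostly between knockdowns. For siRpl11 against the mean of the others, quantile normalization gave 4267 higher and 3242 lower and median-ratio scaling 3921 higher, in place of 2251 and 5419. For siRpl18 against siRpl14 (730 higher and 1017 lower), only the groups compared gave 459 and 529. For siRpl18 against siRpl23 (131 and 299), no filter gave 86 and 181, only the groups compared 26 and 40, and 205 and 253 were higher with quantile normalization and median-ratio scaling. For siRpl14 against siRpl23 (12 and 51), the pseudocount gave 7 and 28, no filter 4 and 19, only the groups compared 3 and 8, all 15 libraries 32 lower, and leaving out 1 library 1 to 8 higher and 1 to 38 lower. The cause was not tested.

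Replicates share only a number in the labels: differences between replicates 1 and 2 correlated between groups at r of -0.09 to 0.20 across genes. The replicate block changed no call of the 10 genes; over all genes it gave 1545 lower in siRpl18 against siRpl14, 316 higher and 670 lower in siRpl18 against siRpl23, and 62 higher and 178 lower in siRpl14 against siRpl23. Absolute depth is unknown, which limits what can be said of Krt7 in siNT and of other genes under 1 FPKM.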
